A study of Sus scrofa with 36 samples.

Results

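The proteasome genes described here were the genes of a porcine expression array whose single annotated symbol begins with PSMA, PSMB, PSMC, PSMD, PSME, PSMF or PSMG. This rule found 40 of the 6765 genes with a single symbol, measured by 46 probe sets, and each gene was represented by its probe set with the highest mean over all 36 arrays. Of these, 4 were grouped as immunoproteasome genes: PSMB8 and PSMB10, which encode inducible catalytic subunits, and PSME1 and PSME2, which encode an interferon-inducible activator. The 36 others encode core subunits, regulatory subunits, other activators, an inhibitor and assembly chaperones. PSMB9, the remaining inducible catalytic subunit, was not analysed here.

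RNA came from the hippocampus of 36 male Landrace×Large White piglets at postnatal day 38. The piglets were bought at 3 days of age and placed at random in 3 feeding groups of 12. The control group received pig milk replacer with its basal level of lactoferrin, the medium-dose group milk replacer with 0.6 g/L lactoferrin and the high-dose group milk replacer with 1.2 g/L, so that milk replacer feeding was common to all groups. Lactoferrin is an iron-binding milk glycoprotein, and the stated aim of the study was to learn how it benefits early neurodevelopment and cognition. Each sample also carried one of the set codes S1 to S5, and the labels do not say what a set is. There were 4 arrays in S1 (2 control, 2 high dose and no medium dose), 10 in S2 (2, 4 and 4 of control, medium and high dose), 8 in S3 (3, 3 and 2), 9 in S4 (3 of each) and 5 in S5 (2, 2 and 1). Values were log2 expression values normalised by robust multi-array averaging (RMA), rounded to 1 decimal, and a level is compared only within a gene, since probe sets differ in how brightly they report.

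The proteasome is the barrel-shaped protease that degrades ubiquitin-tagged proteins in the cytosol and nucleus. Its core particle stacks alpha rings around beta rings that carry the catalytic sites, and a regulatory particle of ATPase and non-ATPase subunits recognises, unfolds and feeds in the substrate. Under interferon, cells make the catalytic subunits encoded by PSMB8, PSMB9 and PSMB10 in place of those encoded by PSMB5, PSMB6 and PSMB7, together with the activator that PSME1 and PSME2 encode, and the resulting immunoproteasome supplies many of the peptides that MHC class I presents. In the brain, neurons rely on the constitutive proteasome for protein turnover at synapses, and immunoproteasome subunits are known mainly from glia under inflammatory conditions.

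All 40 genes passed the filter on dim probe sets, which left 18006 of 23999 probe sets for testing. The array medians lay between 6.6 and 6.7, and each array's mean correlation with the others lay between 0.980 (high-dose replicate 2) and 0.993. No 2 arrays held identical values. Of 12 symbols on the list for hippocampal excitatory neurons, 4 were measured, and all 4 passed the filter: RGS14 had a mean of 9.52, BDNF 8.98, MEIS2 8.74 and NEUROD1 6.63. The tissue is bulk hippocampus, in which fewer cells of a type and less RNA per cell cannot be told apart.

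The feeding groups were compared first for the immunoproteasome transcripts. In the medium-dose group all 4 had a mean below that of the control group, and the 2 activator subunits differed most. Their differences ran from -0.12 to -0.36 log2 units in the limma fit, which adjusts for set code. Unless given within a set code, the differences between feeding groups below come from this fit. None of the 40 proteasome genes passed a Benjamini-Hochberg adjusted p of 0.05 in limma in any contrast of 2 feeding groups, and neither did any of the 18006 probe sets (0% called in each of the 3 contrasts). At an unadjusted p under 0.05, 2 of 40 proteasome genes were called in medium dose against control, both lower, where 6.93% of all probe sets were called, 3.15% lower and 3.78% higher. The high dose had 1 of 40, lower, beside 4.94% of all probe sets, 2.17% called lower and 2.77% higher. The contrasts of both doses against control share the 12 control samples, so their values are set side by side and their likeness is not counted.

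PSME2 encodes the beta subunit of the interferon-inducible activator that opens the gate of the core particle without ATP. Its level ran from 8.0 to 9.2 in the control group (median 8.3), from 7.8 to 8.7 in the medium-dose group (median 8.05) and from 8.0 to 9.0 in the high-dose group (median 8.2). The groups overlapped, with 11 of 12 medium-dose piglets below the control median and 1 above it. The medium dose differed from control by -0.36 (SE 0.10, 95% interval -0.57 to -0.15), with a limma p of 0.00129 that adjusted to 0.515. The high dose differed from control by -0.08 (limma p = 0.431) and from the medium dose by 0.28 (SE 0.10, limma p = 0.00996, adjusted p = 0.811), with 11 of 12 high-dose piglets above the medium-dose median and 1 below it.

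PSME1 encodes the alpha subunit of the same activator, and in the RefSeq order of the pig genome a single gene, EMC9, lies between PSME1 and PSME2. Its level ran from 8.6 to 9.4 in the control group (median 8.9), from 8.4 to 9.3 in the medium-dose group (median 8.7) and from 8.2 to 9.2 in the high-dose group (median 8.7). Again the groups overlapped: 10 of 12 medium-dose piglets and 8 of 12 high-dose piglets lay below the control median. The medium dose differed from control by -0.29 (SE 0.08, 95% interval -0.45 to -0.12, limma p = 0.00115, adjusted p = 0.515). The high dose differed by -0.20 (SE 0.08, limma p = 0.0165, adjusted p = 0.976), which made PSME1 the one proteasome gene at an unadjusted p under 0.05 in that contrast. A single test over the 3 groups gave p = 0.00355 for PSME1 and p = 0.00343 for PSME2, both with an adjusted p of 0.761 in limma, where 5.89% of all probe sets had an unadjusted p under 0.05.

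PSMB10 and PSMB8 encode inducible catalytic subunits. PSMB10 ran from 7.7 to 8.5 in the control group (median 8.0), from 7.4 to 8.3 in the medium-dose group (median 7.8) and from 7.3 to 8.5 in the high-dose group (median 7.85). Its medium-dose difference was -0.21 (SE 0.10, limma p = 0.0503, adjusted p = 0.718), with 9 of 12 piglets below the control median, and its high-dose difference was -0.07 (limma p = 0.487). PSMB8 ran from 5.7 to 7.0 (median 6.0) in the control group, from 5.5 to 6.5 (median 5.9) in the medium-dose group and from 5.3 to 6.7 (median 5.9) in the high-dose group. Its differences of -0.12 (SE 0.11, limma p = 0.288) and -0.10 (limma p = 0.386) were within the spread of the groups, whose SDs were 0.35 to 0.38 (n = 12). Single arrays weighed on these values: the medium-dose difference of PSMB8 was -0.05 without control replicate 9 and -0.18 without control replicate 12, and its high-dose difference was -0.02 if high-dose replicate 9 was left out, or -0.03 if control replicate 9 was. The high-dose difference of PSMB10 ran from -0.14 without high-dose replicate 2 to -0.03 without high-dose replicate 9.

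**Figure D1:**
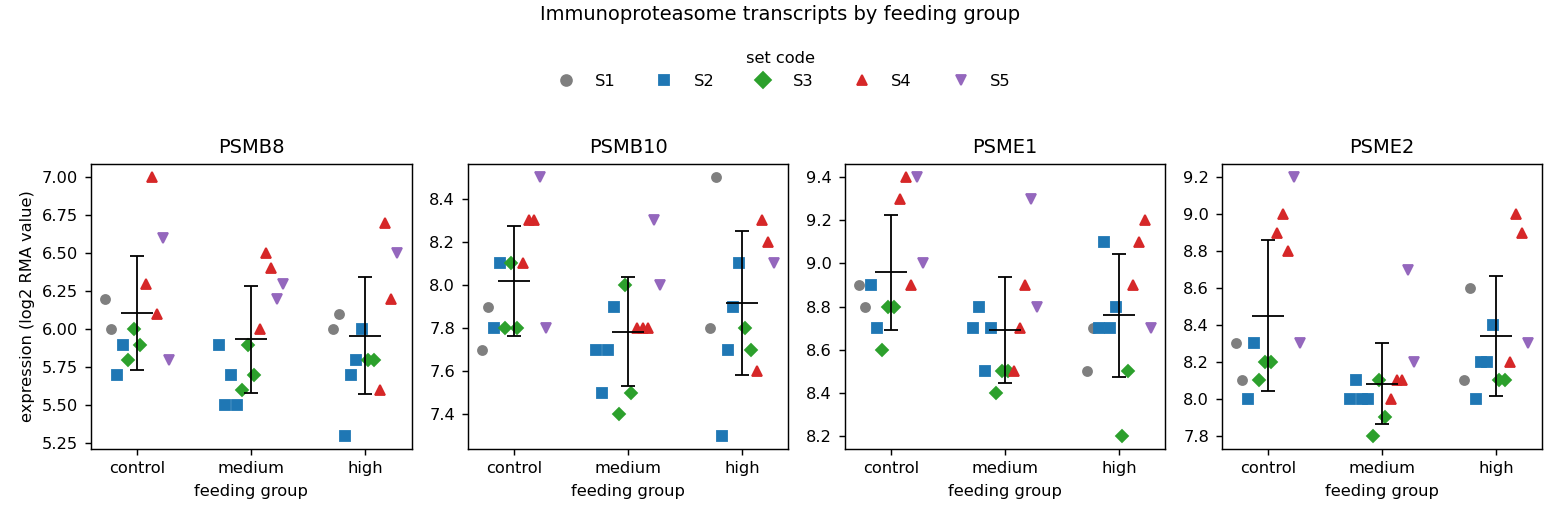
Log2 RMA expression of PSMB8, PSMB10, PSME1 and PSME2 in each of the 36 piglets by feeding group (12 per group), with colour and shape for the set code, the long bar at the group mean and the whiskers at 1 SD. The groups overlap for all 4 genes, and the highest PSME2 values in the control group, 8.8 to 9.2, come from S4 and S5.

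The 36 other proteasome genes lay close to 0 in every contrast. In medium dose against control their differences ran from -0.07 to 0.10 with a median of 0.01, and 22 were above 0 and 14 below. In high dose against control they ran from -0.10 to 0.09 with a median of 0.00, and 20 were above 0 and 16 below. The median over all 18006 probe sets was 0.00 in both contrasts. None of the 36 had an unadjusted p under 0.05 against control at either dose in limma.

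**Figure D2:**
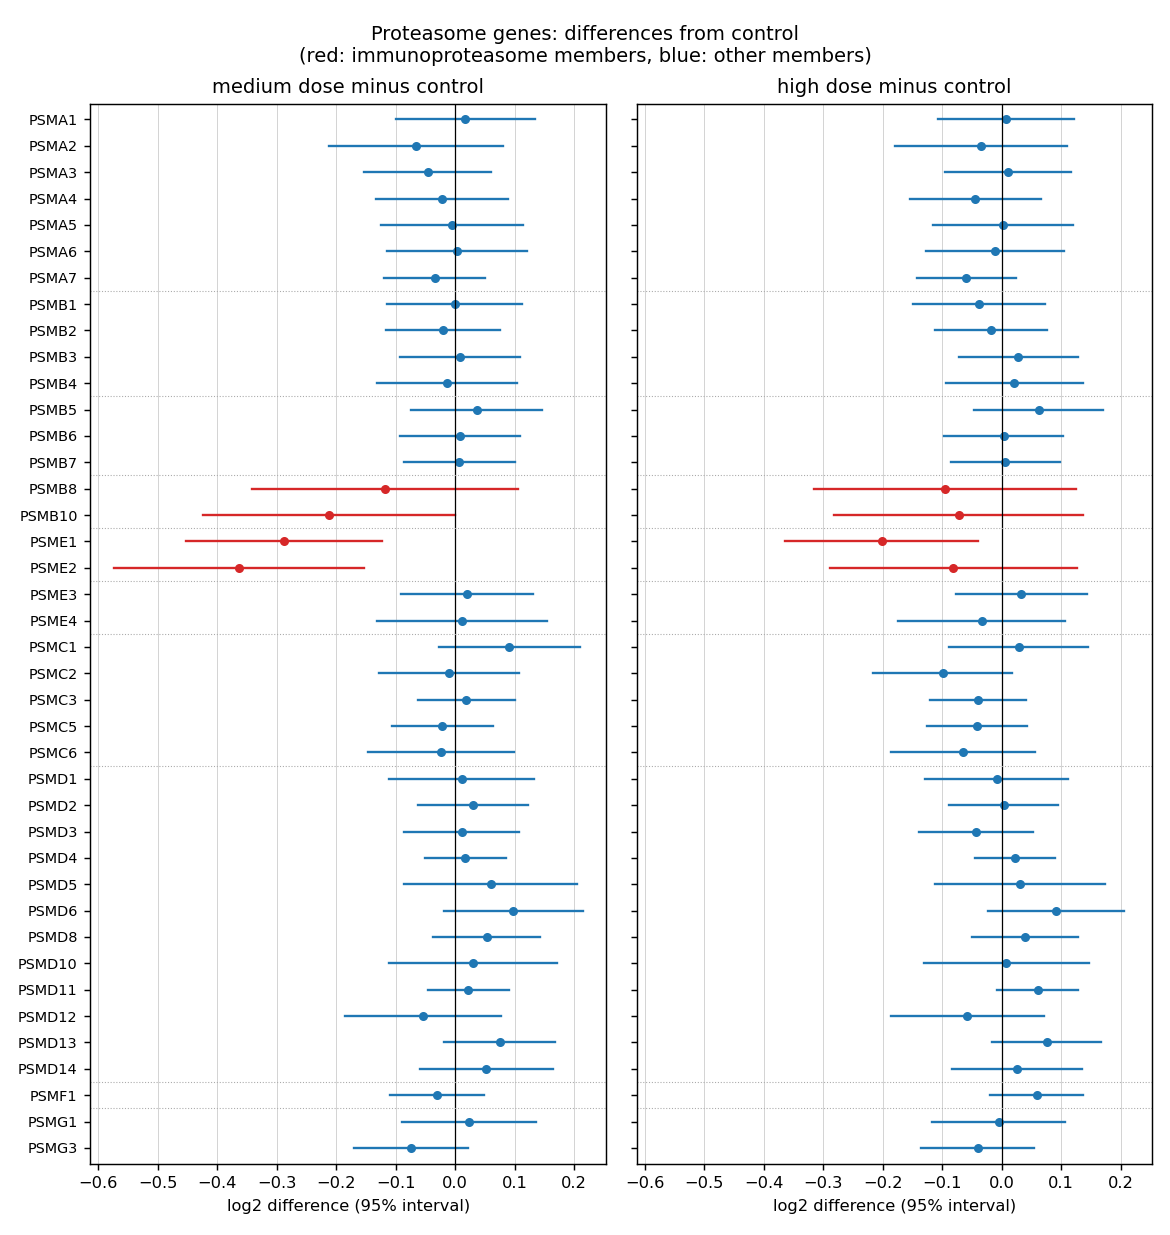
Difference of the medium dose (left) and of the high dose (right) from control for the 40 proteasome genes in log2 units, with points at the limma estimate, lines for the 95% interval, and dotted lines between role groups. The 4 immunoproteasome genes (red) lie from -0.12 to -0.36 at the medium dose, while the 36 others (blue) lie from -0.07 to 0.10.

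The constitutive catalytic subunits were measured beside their inducible counterparts. PSMB5, which carries the chymotrypsin-like activity that PSMB8 takes over, ran from 10.4 to 10.9 (median 10.7) in the control group, from 10.4 to 10.9 (median 10.8) in the medium-dose group and from 10.5 to 11 (median 10.8) in the high-dose group. Its differences from control were 0.04 at the medium dose (limma p = 0.506) and 0.06 at the high dose (limma p = 0.251). PSMB6, the caspase-like subunit that PSMB9 replaces, had a median of 10.1 in each group within a range of 9.8 to 10.3. PSMB7, the trypsin-like subunit that PSMB10 replaces, ran from 10.3 to 10.7 with group medians of 10.5, 10.45 and 10.4. For PSMB6 and PSMB7 both doses differed from control by 0.01 or less.

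The 7 alpha ring genes, whose products form the gated outer rings, differed from control at the medium dose by -0.07 (PSMA2, limma p = 0.37) to 0.02 (PSMA1), and 5 of 7 were below 0. The 4 non-catalytic beta ring genes PSMB1 to PSMB4 differed by -0.02 to 0.01. PSMA7, for example, ran from 11.7 to 12.1 over the 36 arrays and differed by -0.03 at the medium dose and -0.06 at the high dose (limma p = 0.411 and p = 0.156).

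For the regulatory particle, the 12 measured PSMD genes were grouped by symbol as non-ATPase genes, with any for assembly factors not set apart. Of these 12, 11 were above control at the medium dose, with a median of 0.03. At the high dose 9 of 12 were above control, with a median of 0.02. PSMD6 had the largest of these differences, 0.10 at the medium dose (limma p = 0.0981) and 0.09 at the high dose (limma p = 0.116). Of the 5 measured ATPase genes, whose products form the unfolding ring, 2 were above control at the medium dose and 1 at the high dose, and all 5 were lower in the high dose than in the medium dose, by 0.02 to 0.09 log2 units. PSMC2 had the lowest high-dose difference, -0.10 (limma p = 0.0903), and PSMC1 the highest medium-dose difference, 0.09 (limma p = 0.129). By the probe set that represents each gene, none of these 17 genes had an unadjusted p under 0.05 in any contrast of feeding groups in limma.

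PSMF1 encodes an inhibitor of the core particle that competes with the activators. It ran from 7.5 to 7.7 (median 7.6) in the control group, from 7.4 to 7.7 (median 7.6) in the medium-dose group and from 7.5 to 7.8 (median 7.7) in the high-dose group. The high dose exceeded the medium dose by 0.09 (SE 0.04, limma p = 0.0284, adjusted p = 0.811), a difference below the rounding step of the values, and the second probe set of PSMF1 gave 0.20 (SE 0.07, limma p = 0.00411). With PSME2, PSMF1 was 1 of 2 proteasome genes at an unadjusted p under 0.05 between the doses, both higher in the high dose, beside 5.98% of all probe sets, 2.48% called higher and 3.49% lower.

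The remaining activators, PSME3, whose product forms a nuclear relative of the PSME1 and PSME2 cap, and PSME4, which encodes a large single-chain activator, differed from control by -0.03 to 0.03 at both doses. The assembly chaperones PSMG1 and PSMG3, which help alpha rings form, differed by 0.02 and -0.07 at the medium dose (limma p = 0.678 and p = 0.125) and by -0.01 and -0.04 at the high dose. Of the genes with more than 1 probe set (PSMC2 and PSMD11 with 3, PSMD1 and PSMF1 with 2), none had probe sets in opposite directions at an unadjusted p under 0.05. The 3 probe sets of PSMD11 followed each other least, with correlations of 0.14 to 0.21 over the 36 arrays, and its dimmest gave 0.12 between high and medium dose (SE 0.06, limma p = 0.0315, adjusted p = 0.811).

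The set code was the second way in which the samples divided. Of the 4 immunoproteasome genes, PSMB8, PSME1 and PSME2 passed the test for any difference between set codes, with their highest medians in S4 and S5. In all, 4 of 40 proteasome genes passed at an adjusted p of 0.05 in limma, beside 2.62% of all probe sets, and 11 of 40 had an unadjusted p under 0.05, beside 17.4%. PSMD4 was the remaining gene to pass.

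PSMB8 had medians of 6.05 (range 6.0 to 6.2), 5.7 (5.3 to 6.0), 5.8 (5.6 to 6.0), 6.3 (5.6 to 7.0) and 6.3 (5.8 to 6.6) in S1 to S5. S2 and S3 lay lowest, S4 and S5 highest, and S4 overlapped every other set (F = 8.56, adjusted p = 0.0155 in limma). PSME1 had medians of 8.75 (8.5 to 8.9), 8.7 (8.5 to 9.1), 8.5 (8.2 to 8.8), 8.9 (8.5 to 9.4) and 9.0 (8.7 to 9.4), lowest in S3 (F = 8.30, adjusted p = 0.0155 in limma). PSME2 had medians of 8.2 (8.1 to 8.6), 8.05 (8.0 to 8.4), 8.1 (7.8 to 8.2), 8.8 (8.0 to 9.0) and 8.3 (8.2 to 9.2), with the widest ranges in S4 and S5 (F = 6.68, adjusted p = 0.0316 in limma). PSMB10 had medians of 7.85, 7.75, 7.8, 8.1 and 8.1, with S4 and S5 highest and S2 lowest, but did not pass (F = 2.83, p = 0.0400, adjusted p = 0.26 in limma).

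PSMD4 encodes a ubiquitin receptor of the regulatory particle. Its set medians were 10.35, 10.2, 10.1, 10.1 and 10.2, a spread of few rounding steps (F = 6.24, adjusted p = 0.0376 in limma). The call was lost in 17 of the 36 fits that left out 1 array, with an adjusted p of up to 0.128 without control replicate 2. That of PSME2 was lost in 6 of 36, up to 0.0626. PSMB8 and PSME1 kept theirs in all 36. Beside 4 of 40 with all sets, leaving out a whole set gave 2 of 40 without S1, 1 without S2, 0 without S3, 1 without S4 and 4 without S5.

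The other 6 genes at an unadjusted p under 0.05 between set codes were PSMA2, PSMA4, PSMB1, PSMB5, PSMB6 and PSMC1, each with an adjusted p of 0.174 to 0.279 in limma. Their orders of sets were not all alike. PSMB5 had its lowest median in S4 (10.6) and 10.8 in each other set. PSMA2 ran from 10.25 in S3 to 10.6 in S5, the same lowest and highest sets as PSME1. PSMA4 and PSMB1 had their highest medians in S1 (10.2 and 10.5).

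**Figure D3:**
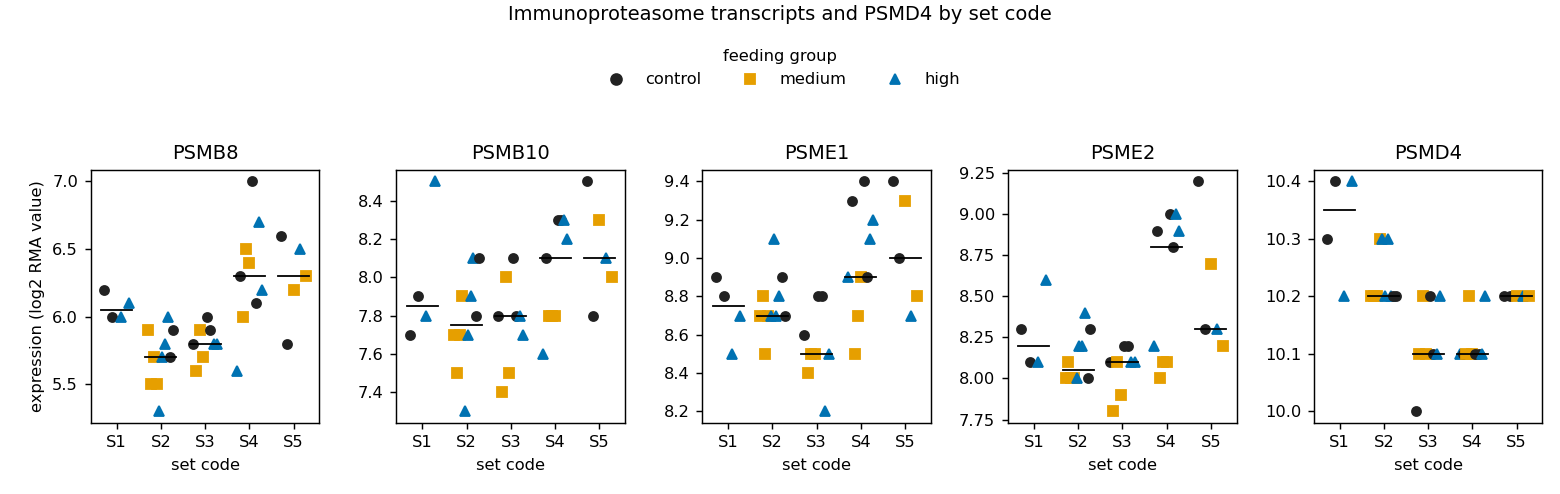
Log2 RMA expression of PSMB8, PSMB10, PSME1, PSME2 and PSMD4 in each piglet by set code (4, 10, 8, 9 and 5 arrays in S1 to S5), with colour and shape for the feeding group and a bar at the set median. PSME2 in S4 splits between values of 8.0 to 8.2 and values of 8.8 to 9.0, with all 3 control arrays in the upper range and all 3 medium-dose arrays in the lower.

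The difference between medium dose and control was also read within each set code that held both groups. PSME2 differed by -0.13, -0.23, -0.83 and -0.30 in S2 to S5. In S4 the control arrays read 8.9, 9.0 and 8.8, the medium-dose arrays 8.0, 8.1 and 8.1, and the high-dose arrays 8.2, 9.0 and 8.9. All 3 medium-dose values there lay below all 3 control values, and the high-dose values reached both ranges. Without S4 the medium-dose difference of PSME2 was -0.19, and without S2 it was -0.44.

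PSME1 differed by -0.13, -0.27, -0.50 and -0.15 in S2 to S5, negative in all 4, and by -0.21 without S4. PSMB10 differed by -0.25, -0.27, -0.43 and 0.00, and PSMB8 by -0.15, -0.17, -0.17 and 0.05. At the high dose the within-set differences of all 4 genes took both signs over S1 to S5: PSME1, for example, had -0.25, 0.03, -0.38, -0.13 and -0.50. In S4, 2 of 40 proteasome genes (PSMB10 and PSME2) had every medium-dose value below every control value, beside 3.57% of all probe sets, and S3 had 2 (PSME1 and PSME4), beside 5.11%. In S5 the count was 1 (PSMB6), beside 8.05%, and in S2 it was 0, beside 5.72%.

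Whether the medium-dose difference varied with the set code was tested directly. None of the 40 genes passed an adjusted p of 0.05 in limma, and PSME2 alone had an unadjusted p under 0.05 (F = 3.48, p = 0.0368, adjusted p = 0.769), beside 0% of all probe sets passing and 6.21% at an unadjusted p under 0.05. For the high dose none passed and none had an unadjusted p under 0.05 (smallest p = 0.144), beside 0.0111% passing and 4.87% at an unadjusted p under 0.05.

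The immunoproteasome genes also varied more from piglet to piglet than the rest. Their SDs over the 36 arrays ran from 0.28 to 0.37, and all 4 were above the median SD of all tested probe sets, 0.17. PSMB8 stood at the 94.9th percentile of SD among tested probe sets, PSME2 at the 94.1st, PSMB10 at the 88.6th and PSME1 at the 87.6th. The 36 others had SDs of 0.065 to 0.194, and 35 of them (97.2%) were below the median of all probe sets, beside 54.0% of the 10266 tested probe sets in their range of mean level. PSMB7 stood at the 5.13th percentile, PSMF1 at the 2.06th and PSMD4 at the 1.24th. The SD of the steadiest genes was of the order of the rounding step.

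Across the 36 arrays the immunoproteasome genes followed each other. PSMB10 and PSME2 had r = 0.82 (rho = 0.77, permutation p = 1e-05; r was 0.79 once the 2 arrays with the most extreme PSMB10 values were left out), and PSME1 and PSME2 had r = 0.79 (rho = 0.73, permutation p = 1e-05; r was 0.79 after the same step for PSME1). The 6 pairs had a median r of 0.70, from 0.54 to 0.82. All 6 passed in the family of 12 relations tested, the weakest being PSMB10 with PSME1 (r = 0.54, rho = 0.46, permutation p = 0.00075, adjusted p = 0.0009) and PSMB8 with PSME1 (r = 0.55, rho = 0.46, permutation p = 0.00052, adjusted p = 0.000693). Neither of these passed in residuals after feeding group and set code (r = 0.29 and r = 0.28, adjusted permutation p = 0.104 for both), while PSMB10 with PSME2 kept r = 0.75, PSME1 with PSME2 r = 0.65 and PSMB8 with PSMB10 r = 0.59. Against their constitutive counterparts, PSMB8 with PSMB5 had r = -0.11 (permutation p = 0.522), and PSMB10 with PSMB7 had r = 0.29 (permutation p = 0.0896), or 0.44 in residuals (adjusted permutation p = 0.00847). The r of 0.29 became 0.09 once the 2 arrays with the most extreme PSMB10 values were left out.

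The arrays fell into 2 ranges of interferon response, read as the mean of 24 tested interferon-induced genes that include none of the proteasome genes. In 28 arrays this mean was at most 7.34, and in the other 8 it was at least 7.86. The 8 were 5 of the 9 arrays of S4 and 3 of the 5 of S5, and by feeding group they were 4 control, 1 medium-dose and 3 high-dose arrays. In S4 all 3 control arrays and 2 high-dose arrays were among them, and no medium-dose array was. Over all 36 arrays, r with this mean was 0.78 for PSMB8, 0.76 for PSMB10, 0.76 for PSME1 and 0.92 for PSME2. All 4 passed (adjusted permutation p = 1.71e-05 each), and these r include the distance between the 2 ranges. In residuals after feeding group and set code they were 0.60, 0.64, 0.58 and 0.86, and all 4 passed. Relations with this mean were therefore also taken on each side of the gap, a split chosen after the data were seen. Each side spans a narrower range of this mean.

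Among the 28 arrays below the gap, PSMB8 followed the interferon mean with r = 0.71 (rho = 0.74, permutation p = 2e-05, adjusted p = 0.00012), PSME2 with r = 0.63 (rho = 0.62, permutation p = 0.0003, adjusted p = 0.0012) and PSMB10 with r = 0.58 (rho = 0.56, permutation p = 0.00114, adjusted p = 0.00342). PSME1 had r = 0.36 (permutation p = 0.0589, adjusted p = 0.0785). Without the 2 arrays farthest from the median of the gene, these were 0.73, 0.54, 0.54 and 0.36. Among the 8 arrays above the gap, PSME2 had the highest r with the interferon mean, 0.74 (exact permutation p = 0.0187, adjusted p = 0.119). No relation passed there after adjustment over the 12. Within S4, which spans both ranges, PSME2 had r = 0.96, within S2 0.84 and within S3 0.63. PSME1 had r = 0.81 within S4, 0.34 within S2 and 0.84 within S3.

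The pairs of immunoproteasome genes were read the same way. Below the gap PSMB10 with PSME2 had r = 0.73 (permutation p = 2e-05, adjusted p = 0.00012), PSMB8 with PSMB10 r = 0.52 (permutation p = 0.00454, adjusted p = 0.00908) and PSME1 with PSME2 r = 0.44 (permutation p = 0.023, adjusted p = 0.0394). Leaving out the 2 arrays below the gap farthest from the median of the first gene gave 0.59, 0.66 and 0.49. The other 3 pairs did not pass there, with r = 0.11 for PSMB10 with PSME1, 0.13 for PSMB8 with PSME1 and 0.38 for PSMB8 with PSME2. Above the gap none of the 6 pairs passed, with r from 0.27 to 0.78. The relation of PSME1 with both catalytic subunits therefore passed over all 36 arrays together and on neither side of the gap. With the constitutive counterparts, PSMB10 with PSMB7 passed below the gap, with r = 0.55 (permutation p = 0.00265, adjusted p = 0.00636). Above the gap the same pair had r = 0.84 (exact permutation p = 0.0298, adjusted p = 0.119). Without the 2 arrays farthest from the PSMB10 median on each side, its r was 0.41 below the gap and 0.85 above it. PSMB8 with PSMB5 had r = 0.17 below the gap and 0.22 above it, and did not pass.

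**Figure D4:**
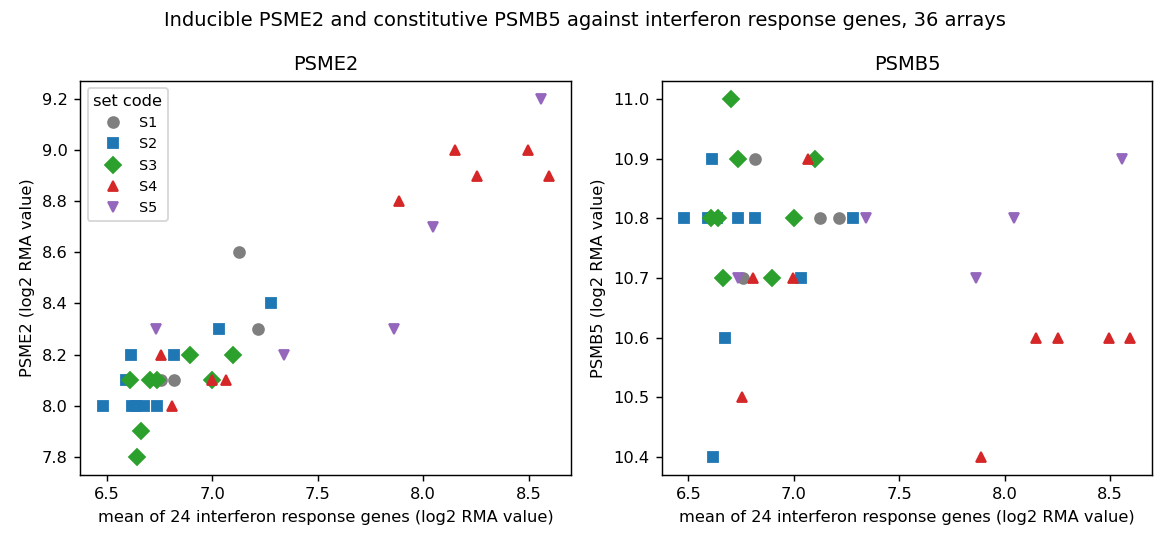
PSME2 (left) and PSMB5 (right) in each of the 36 arrays against the mean of 24 interferon response genes, all in log2 RMA values, with colour and shape for the set code. PSME2 runs from 7.8 to 8.6 in the 28 arrays below the gap at 7.34 to 7.86 and from 8.3 to 9.2 in the 8 above it, which belong to S4 and S5. PSMB5 stays between 10.4 and 11.

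The genes outside the family whose residuals over the 36 arrays, after feeding group and set code, were most like the mean residual of the 4 immunoproteasome genes were LOC733579 (r = 0.86), B2M (0.85), GNG11 (0.84), SLA-DRA (0.83), IRF1 (0.83), GBP1 (0.81), SLA-DQB1 (0.79), ISG15 (0.79), IFI35 (0.78) and PLAC8 (0.78). B2M is the light chain of MHC class I, SLA-DRA and SLA-DQB1 are pig class II chains, IRF1 is a transcription factor induced by interferon gamma, and GBP1 is an interferon-induced GTPase. The 8 arrays above the gap are among the 36, so these r include their distance from the rest. For the mean residual of the 36 other proteasome genes the most alike were NDUFB5 (0.90), a subunit of respiratory complex I, COPS5 (0.89), a subunit of the COP9 signalosome, ATPIF1 (0.86), MIEN1 (0.86) and PLA2G12A (0.86).

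The 36 other genes formed a looser family. Their 630 pairs had a median r of 0.32, from -0.46 (PSMD10 with PSME4) to 0.84 (PSMA6 with PSMD14), beside a median of 0.01 over all pairs of tested genes. The genes of the core particle followed each other most: 91 pairs had a median r of 0.59, and the 21 pairs within the alpha ring had a median of 0.64, none below 0.44. The genes grouped as the regulatory particle had a median of 0.31 over 136 pairs, and core with regulatory genes 0.35 over 238 pairs. PSMA6, an alpha ring gene, had the highest median r with the other members, 0.52, while PSME4 (-0.18), PSMF1 (-0.03) and PSMD11 (-0.01) had the lowest. The immunoproteasome genes had a median r of 0.09 over 144 pairs with the others, from -0.56 (PSMB10 with PSMD2) to 0.62 (PSMB10 with PSMA3), so that some of these pairs exceeded the weakest immunoproteasome pair (0.54). PSMA2, an alpha ring gene, had r of 0.54 to 0.60 with all 4 of them. These correlations share their arrays and the normalisation, and genes of low SD are limited by the rounding.

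**Figure D5:**
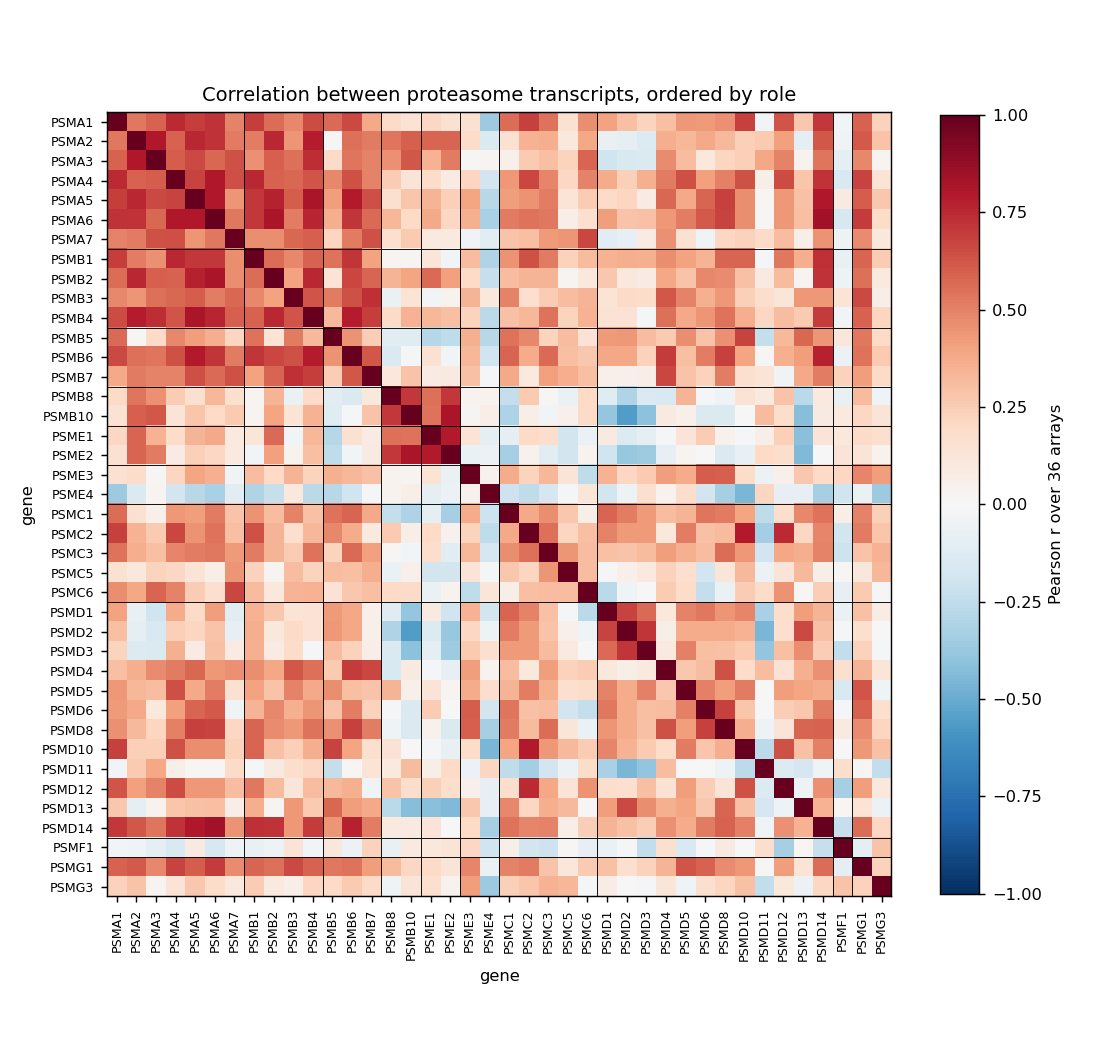
Pearson correlation over the 36 arrays between each pair of the 40 proteasome genes, ordered by role along both axes, with the colour scale for r. The alpha and beta ring genes form a block of high r (median 0.59 over 91 pairs), the 4 immunoproteasome genes form a second block (median 0.70 over 6 pairs), and PSME4, PSMF1 and PSMD11 are near 0 or below with most others.

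Other genes of the pathway were read from lists of named genes. In the class I antigen presentation list, 11 of 18 symbols were tested, all 11 were below control at the medium dose with a median of -0.21, and 5 had an unadjusted p under 0.05, all lower, beside 6.93% of all probe sets called and 3.15% called lower (adjusted over all probe sets, none passed in limma). SLA-2, a class I heavy chain, differed by -0.48 (limma p = 0.0025), B2M by -0.48 (limma p = 0.00313) and TAPBP, which loads peptide onto class I, by -0.22 (limma p = 0.00747). In the pig genome PSMB8 lies beside TAP1 and TAP2, which encode the transporter for the peptides, with no protein-coding gene between them in RefSeq. At the high dose the list had a median of -0.03 and no gene at an unadjusted p under 0.05.

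In the interferon response list, 24 of 47 symbols were tested, and 23 were below control at the medium dose with a median of -0.46. None passed after adjustment in limma, and 16 had an unadjusted p under 0.05, all lower, beside the same 6.93% and 3.15%. CASP1, an inflammatory caspase, differed by -0.47 (limma p = 0.000767), GBP1 by -1.34 (limma p = 0.00328) and IFI44L by -0.76 (limma p = 0.00339). At the high dose the median was -0.15, with no gene at an unadjusted p under 0.05. By set code, 16 of the 24 interferon genes and 5 of the 11 class I genes passed the test for any difference, beside 2.62% of all probe sets. In the limma test of whether the medium-dose difference varied with set code, none of either list passed after adjustment. At an unadjusted p under 0.05 there were 10 of the 24 interferon genes and 2 of the 11 class I genes, beside 6.21% of all probe sets. The 8 arrays above the gap in the interferon mean, all in S4 or S5, were 4 control, 1 medium-dose and 3 high-dose arrays.

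The lists around the constitutive proteasome had medians of 0.01 to 0.06 at the medium dose. Of 12 tested proteasome-associated and maturation factors none had an unadjusted p under 0.05 at the medium dose (median 0.01). Their smallest p belonged to AKIRIN2, a factor for nuclear import of proteasomes, at 0.13 (limma p = 0.0512), then ZFAND2A at -0.17 (limma p = 0.0625) and UBE3A at -0.08. The 3 tested regulators of proteasome genes, HSF1, FOXO3 and NFYB, had a median of 0.06 and none called. Of 29 genes for ubiquitin and its activating and conjugating enzymes, 1 had an unadjusted p under 0.05 at the medium dose, beside 6.93% of all probe sets. It was UBE2D4, at 0.17 (limma p = 0.0017), with UBE2N at -0.08 and UBE2O at 0.09, and a list median of 0.01. Of 8 peptidases that trim proteasome products, 1 had an unadjusted p under 0.05, TPP2 at 0.15 (limma p = 0.0356), beside the same share, followed by BLMH at 0.12 and PREP at 0.11, with a list median of 0.05. At each dose 7 of the 8 peptidases were above control and 1 below, with a high-dose median of 0.06. The ubiquitin list at the high dose had 18 of 29 genes below control and 11 above. In it, 2 had an unadjusted p under 0.05 in limma, 1 higher and 1 lower, beside 4.94% of all probe sets.

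Markers of other cell types were read beside the immunoproteasome values. The mean of the 11 tested markers of 13 measured for microglia and macrophages was 7.69 in the control group (7.39 to 8.30), 7.51 in the medium-dose group (7.26 to 7.85) and 7.53 in the high-dose group (7.37 to 7.66), and 7.56, 7.55, 7.45, 7.67 and 7.68 in S1 to S5. All 11 were below control at both doses, 4 with an unadjusted p under 0.05 in limma at the medium dose and 3 at the high dose, beside 6.93% and 4.94% of all probe sets. The mean of 8 lymphocyte markers was 5.90 (5.74 to 6.44), 5.87 (5.74 to 6.06) and 5.91 (5.74 to 6.14) in the same groups, with the highest array, at 6.44, in S4, and CD3E, CD3G, CD4, CD8A and CD79B were below the filter. By set code it was 5.83, 5.86, 5.83, 5.99 and 5.95 in S1 to S5. Over the 36 arrays, which share their normalisation, the mean of the 4 immunoproteasome genes had r = 0.58 with the microglia mean and r = 0.56 with the lymphocyte mean, as a description. Its r with the means of the other cell type lists ran from -0.30 (hippocampal excitatory neurons) to 0.22 (endothelium). With the interferon response mean it had r = 0.92, and with the class I mean 0.89. All of these r include the 8 arrays above the gap. Control replicate 9, in S4, was the highest array in both the microglia mean (8.30) and the lymphocyte mean (6.44). It also shared the highest immunoproteasome mean, 8.425, and no r was taken without it. The 10 oligodendrocyte markers had a mean of 11.1 (10.6 to 11.9), 10.8 (10.6 to 11.1) and 11.1 (10.6 to 12.1), and all 10 were below control at the medium dose with 1 at an unadjusted p under 0.05 in limma. The 4 markers of hippocampal excitatory neurons had a median difference of 0.28 at the medium dose, with 1 higher and 1 lower at an unadjusted p under 0.05 in limma, and of 0.00 at the high dose, with 1 lower. The 8 tested markers of the general neuron list had a median difference of 0.04 at the medium dose and -0.01 at the high dose. None of these 8 had an unadjusted p under 0.05 in limma at either dose. Of 11 endothelial markers 7 were above control at the medium dose, none at an unadjusted p under 0.05, and 10 at the high dose, 2 of them at an unadjusted p under 0.05 in limma. Of 8 astrocyte markers 6 were below control at the medium dose, 1 at an unadjusted p under 0.05 in limma, and 5 at the high dose. The signal of the actin control probe sets, 3′ minus 5′ in log2 units, averaged 2.73, 3.05 and 2.80 in control, medium and high dose, and 2.63, 3.00, 3.19, 2.57 and 2.78 in S1 to S5. The part of these in the immunoproteasome differences was not tested.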

How the data were processed

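Total RNA was labelled with biotin and hybridised to Affymetrix arrays, per the labels' protocols, and the authors deposited log2 values. The submitters' processing notes name RMA and Affymetrix Expression Console 1.1. The files hold 1 decimal. Array controls (124 probe sets) were dropped, and those whose mean fell under the 25th percentile (4.92) were not tested. Probe sets were named from GEO's platform annotation: 10069 had 1 symbol, 198 several and 13732 none. All 40 genes matched RefSeq by gene ID.

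limma 3.58.1 in R 4.3.3 was fitted on all 36 arrays with feeding group and set code as fixed terms, two-sided, with Benjamini-Hochberg adjustment over 18006 probe sets and a threshold of 0.05. Set code differences and dose by set interactions used limma F tests. Relations across arrays used two-sided permutation tests, exact for groups under 10 and with 100000 resamples otherwise (smallest p 1e-05), in Python 3.11.15. The scripts were tested on simulated data. The labels give each array as a separate piglet. The number of arrays limits the precision.

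The genes named are the immunoproteasome and constitutive catalytic subunits, PSMF1, members at an unadjusted p under 0.05, the 3 genes with the smallest medium-dose p in each list, and the 10 and 5 most alike genes; others are named as the ends of ranges, chosen after their values were seen. The members and lists were chosen with earlier results of these data known.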

Additional observations from a re-analysis of the deposited data

How the results depend on the processing

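No proteasome gene passed a contrast of feeding groups under any of 19 alternative settings or 36 fits leaving out 1 array. The 1293 alternative values of the named genes' differences held 98 changes of sign. No main or alternative value passed the threshold, so there was no called value whose sign could change. Between set codes, the 4 calls became 0 with a replicate block with set block (0 of all probe sets, main 472), 2 without S1 (58), 1 without S2, 0 without S3 (196) and 1 without S4 (79). Replicate numbers rise with the set code within each feeding group, and 24 of 36 same-numbered pairs share a set code. A replicate block therefore overlaps with the set code, and that fit cannot show whether the set calls hold. All probe sets gave 841 with array weights and 919 at an adjusted p of 0.1. Leaving out 1 array gave 2 to 5 proteasome genes and 134 to 759 probe sets. For all probe sets, medium dose against control gave 11 with only both groups fitted and 4 without S1, high against medium gave 1 with array weights, and the high dose by set test (main 2) gave 0 with a spike-in block, quantile normalization, robust trended variances or without S2, S4 or S5, and 1 without S1 or S3. Leaving out 1 array gave 0 to 13 for that test, 0 to 11 for medium dose by set (11 without control replicate 11), and 0 to 1 for medium against control, high against medium and any group difference. The causes were not tested.

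Same-numbered arrays of different groups did not deviate together (36 pairs, r from -0.45 to 0.31, 8 over 0.1), so the numbers were not taken as pairs. With a replicate block and no set block, PSME2 differed by -0.37 and PSME1 by -0.27 at the medium dose, and no group call changed. Since the replicate numbers follow the set codes, that fit is not free of set code. PSME2 ranged from -0.44 to -0.19 and PSME1 from -0.36 to -0.21 over the settings. A filter at the 50th percentile drops PSMB8. The interaction tests were not run without a fixed set term. Rounding to 1 decimal limits the steadiest genes.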
